A study of Mus musculus with 6 samples.

Results

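Iron handling was read in osteoclast precursors (OCPs) from WT and *lincRNA-EPS*-/- (KO) mice through 10 genes that bring iron into the cell, store it, release it or sense it. The members were fixed by gene symbol: *Tfrc*, *Slc11a2* and *Slc11a1* for transport into the cell or the cytosol, *Fth1*, *Ftl1* and *Ncoa4* for storage and its release, *Slc40a1* for export, and *Aco1*, *Ireb2* and *Fbxl5* for control. Each symbol matched 1 row, so the set holds 10 of the 57180 genes in the table, and all 10 passed the filter on low counts. The WT cells came from C57BL/6 mice and the KO cells from mice that lack the long non-coding RNA lincRNA-EPS. Bone marrow cells of both genotypes were kept in the growth factor M-CSF at 40 ng/ml for 24 h, after which 40 ng/ml RANKL, the cytokine that starts osteoclast formation, was added for 48 h. No LPS treatment is given for these libraries. The 3 WT and 3 KO libraries are described as biologically independent replicates. How many mice they came from, and the age and sex of those mice, is not given in the sources used here.

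Most cells take up iron as transferrin bound to the transferrin receptor, which is carried into endosomes, where the iron is released and moved to the cytosol by DMT1, the product of *Slc11a2*. Iron that is not used is stored inside the ferritin shell, built from heavy (*Fth1*) and light (*Ftl1*) chains, and NCOA4 carries ferritin to the lysosome when the iron is needed again. Ferroportin, the product of *Slc40a1*, is the known iron exporter of mammalian cells. The iron regulatory proteins IRP1 (*Aco1*) and IRP2 (*Ireb2*) bind a hairpin called the iron-responsive element when iron is scarce. In the 5′ untranslated region of an mRNA this hairpin blocks translation, and in the 3′ untranslated region of *Tfrc* it protects the mRNA from decay. FBXL5 is the ubiquitin ligase subunit that removes IRP2 when iron is plentiful. Osteoclasts are rich in mitochondria, and their formation is known to draw on iron uptake through the transferrin receptor.

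The hairpin letters are shown first because their place in the mRNA differs between the receptor and the genes of storage and export. The search asked for a C, 5 bases, CAGTG, any base and 5 more bases that pair with the first 5 (A-T, G-C or G-T) on the sense strand of coding transcripts of GENCODE M21 on GRCm38. Capitals mark the bulged C and the CAGTG of the loop.
*Tfrc* 3′ site 1, chr16:32631219-32631247, plus strand: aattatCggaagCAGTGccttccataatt
*Tfrc* 3′ site 2, chr16:32631598-32631626, plus strand: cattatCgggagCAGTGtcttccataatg
*Tfrc* 3′ site 3, chr16:32631663-32631691, plus strand: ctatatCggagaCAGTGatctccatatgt
*Tfrc* 3′ site 4, chr16:32631710-32631738, plus strand: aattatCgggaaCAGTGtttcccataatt
*Fth1* 5′ site, chr19:9982732-9982760, plus strand: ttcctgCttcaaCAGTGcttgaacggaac
*Ftl1* 5′ site, chr7:45459779-45459807, minus strand: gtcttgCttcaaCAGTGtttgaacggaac
*Slc40a1* 5′ site, chr1:45925465-45925493, minus strand: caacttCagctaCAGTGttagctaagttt

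The 4 *Tfrc* matches all lie in the 3′ untranslated region, and the single matches of *Fth1*, *Ftl1* and *Slc40a1* lie in the 5′ untranslated region. Not every annotated coding transcript holds them: 1 of 3 does for *Tfrc*, 4 of 5 for *Fth1*, 1 of 2 for *Ftl1* and 1 of 4 for *Slc40a1*. The counts are per gene and do not tell these transcripts apart. The other 6 members held no match, which says only that these letters are absent from their annotated coding transcripts. Among them is *Slc11a2*, for which an iron-responsive element in the 3′ untranslated region of some transcripts is known. Of 21698 coding genes, 31 (0.143%) held a match in a 5′ and 129 (0.595%) in a 3′ untranslated region. A match is a description of the sequence and not a measured site.

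The libraries held 17757351 to 19998611 estimated counts, and the members between 675 (*Fbxl5*, WT replicate 2) and 280668 counts (*Ftl1*, WT replicate 3). LincRNA-EPS, listed as *Ttc39aos1*, had 20, 37 and 41 counts in the WT libraries and 0 in each KO library, where a count of 0 allows up to 0.150 to 0.169 CPM. Levels in CPM are counts normalized to library size, with edgeR's TMM scaling for all but these floors. WT replicate 2 and KO replicate 3 stood apart: the deviation of a gene from its mean went with GC content at r = 0.56 in WT replicate 2 and -0.61 in KO replicate 3 across genes. The other WT libraries were at 0.19 and 0.23 and the other KO libraries at 0.05 and -0.10, so every WT value was above every KO value. Across the 13176 tested genes with a GC value, the genotype difference went with GC content at r = -0.51. Each member is therefore given with its value after a correction for GC content and, where it matters, without WT replicate 2 and KO replicate 3. Because the GC trend differs by genotype, neither step tells GC content and genotype apart. The correction can also remove a genotype difference that follows GC content. The 7 macrophage markers and the 9 osteoclast markers were above the floor of 3 counts in every library. Of the erythroid markers, *Hbb-bt*, *Slc4a1* and *Ahsp* were at 0 throughout, *Hbb-bs*, *Alas2* and *Klf1* did not pass the floor in any library, *Hba-a1* and *Hba-a2* had 0 to 12 counts, and *Epor* had 5 to 22 counts.

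By level per kilobase of transcript, the members ran from 9.68 to 14773 CPM per kilobase in the WT mean. *Ftl1* was at 14773 ± 386 CPM per kilobase (SD, n = 3) and *Fth1* at 5241 ± 260, and together they took 2.07% to 2.62% of all counts, with *Ftl1* at rank 1 or 2 and *Fth1* at rank 3 to 5 among all genes by counts. *Slc11a1* followed at 168 ± 14.8, *Tfrc* at 77.9 ± 10.5 and *Ncoa4* at 53.6 ± 2.19 CPM per kilobase. *Slc11a2* (27.6 ± 0.893), *Aco1* (24.3 ± 1.27) and *Ireb2* (14.9 ± 1.82) stood below them, with *Slc40a1* at 11.3 ± 0.733 and *Fbxl5* at 9.68 ± 0.912 CPM per kilobase the lowest. In the KO libraries *Tfrc* was at 120 ± 21.1 and *Slc11a1* at 117 ± 14.6, and their ranges overlapped. The longest transcript of *Fth1*, *Slc11a1*, *Ncoa4* and *Slc40a1* is a retained-intron one, so their levels per kilobase are low estimates. Over the longest coding transcript *Fth1* was at 7234 ± 359, *Slc11a1* at 198 ± 17.4, *Ncoa4* at 62.5 ± 2.55 and *Slc40a1* at 13.2 ± 0.854 CPM per kilobase in WT, and the order in WT was the same. Among the lowest members the separation rests on the length used: *Slc40a1* met *Fbxl5* at 10.5 in WT by the longest transcript, and by the coding transcript it was clear of *Fbxl5* and overlapped *Ireb2*, at 12.28 to 13.95 against 12.79 to 16.05. In KO, *Slc11a1* was then at 138 ± 17.2, still overlapping *Tfrc*.

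**Figure D1:**
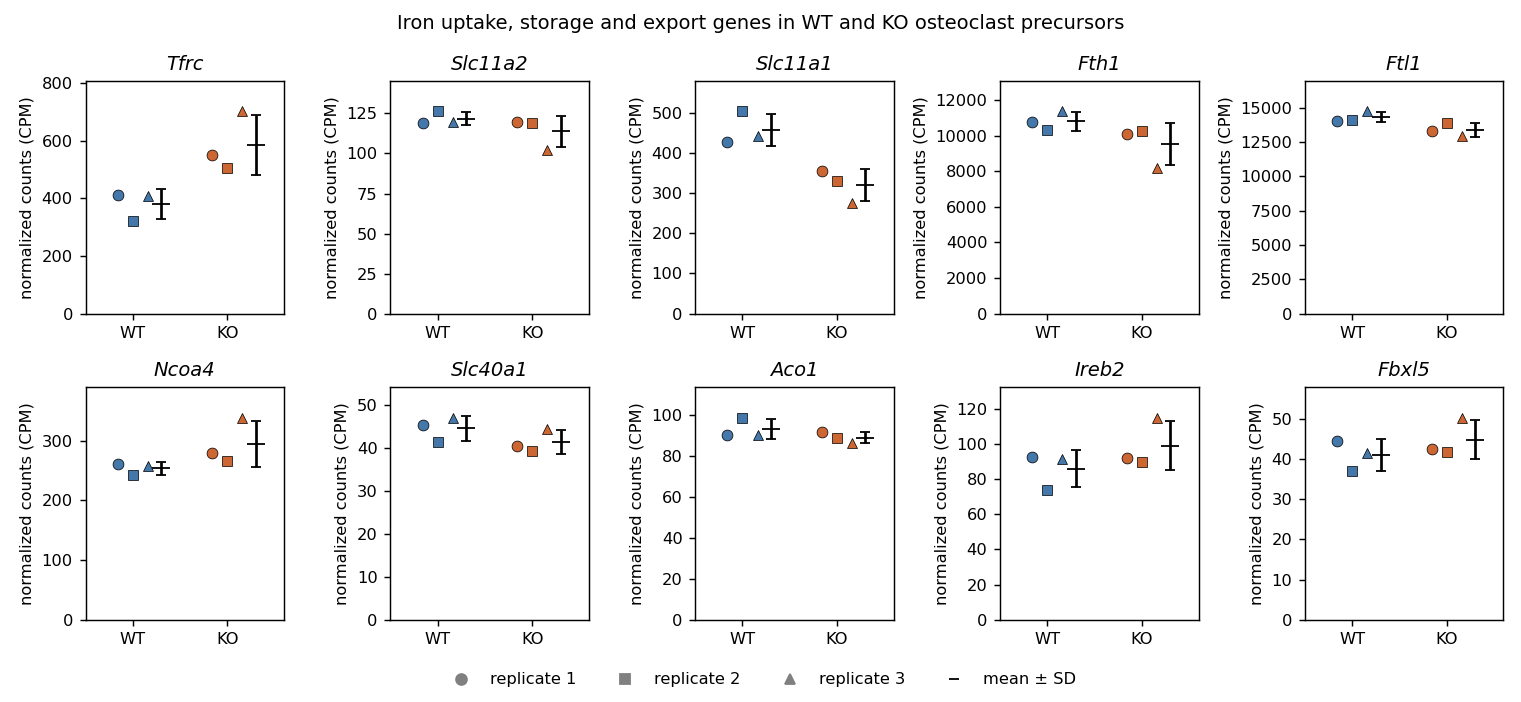
Normalized counts (CPM, vertical axes from 0) of the 10 members in the 3 WT (blue) and 3 KO (orange) libraries, with symbols for replicates 1 to 3 and the black bar for mean ± SD (n = 3). The KO libraries lie above all WT libraries for *Tfrc* and *Ncoa4* and below them for *Slc11a1*, *Fth1* and *Ftl1*.

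The comparison of KO with WT OCPs asks whether loss of lincRNA-EPS goes with a changed level of these mRNAs. Of the 10 members, 4 had a log2 fold change above 0 and 6 below 0, with a median of -0.08 against 0.01 over all 13428 genes tested. By edgeR's quasi-likelihood test with Benjamini-Hochberg adjustment over all genes tested, 0 members passed an adjusted p-value of 0.01 with a fold change above 1.3, where 0% of all genes passed as higher and 0.00745% as lower in KO. At an unadjusted p under 0.05, 1 member was higher (*Tfrc*) and 1 lower (*Slc11a1*), beside 13.0% of all genes higher and 13.2% lower. DESeq2's Wald test put *Tfrc* and *Slc11a1* past both limits, beside 0.489% of its genes higher and 0.628% lower. With the GC correction DESeq2 put 0 members past both, since the fold changes were smaller, beside 1.68% and 1.53%. The libraries of the genotypes did not overlap for 2 higher and 3 lower members, beside 16.9% and 18.8% of all genes. In bulk RNA, a different mix of cells and a different amount of RNA per cell cannot be told apart.

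*Tfrc*, the transferrin receptor (ENSMUSG00000022797, chr16:32608920-32632794 on GRCm38), had 413, 322 and 409 CPM in WT replicates 1 to 3 and 550, 506 and 703 CPM in KO replicates 1 to 3. Every KO library was above every WT library, and the highest and lowest values of all were those of the libraries that stood apart by GC content. The mean was 381 ± 51.5 CPM in WT and 586 ± 103 CPM in KO (SD, n = 3), a 1.54-fold difference. The log2 fold change was 0.62 (SE 0.15, 95% interval 0.28 to 0.96, edgeR adjusted p = 0.147), and DESeq2's adjusted p was 0.00815. *Tfrc* is poor in GC at 39.8%. The 1000 tested genes nearest to it in GC content had a median log2 fold change of 0.29, and 9.6% of them lay above *Tfrc*.

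After the GC correction *Tfrc* stood at 426, 401 and 427 CPM in WT and 550, 492 and 539 CPM in KO. The libraries were still separate, with a log2 fold change of 0.33 (SE 0.070, interval 0.17 to 0.49, edgeR adjusted p = 0.0618). Without WT replicate 2 and KO replicate 3 the log2 fold change was 0.36 on uncorrected counts (edgeR adjusted p = 0.0456). Both values lie below the fold change limit of 0.379. Proliferating cells are known for a high transferrin receptor level, and the summed level of 7 proliferation markers was 1781 to 1811 CPM in WT and 1770 to 2017 CPM in KO, with 2 of them higher and 1 lower at p under 0.05. The 9 osteoclast markers summed to 4825 to 5197 CPM in WT and 6581 to 6922 CPM in KO, with 6 of 9 higher at p under 0.05. Of all genes tested, 13.0% were higher and 13.2% lower at this unadjusted p. The marker levels are not corrected for GC content. The part of these markers in the *Tfrc* difference was not tested.

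*Slc11a2* encodes DMT1, which moves ferrous iron out of the endosome (chr15:100387898-100425072 on GRCm38). Its level was 119, 126 and 120 CPM in WT and 120, 119 and 102 CPM in KO, and the genotypes overlapped. The log2 fold change was -0.10 (SE 0.096, interval -0.32 to 0.12, edgeR adjusted p = 0.524), and -0.06 after the GC correction. On uncorrected counts it was -0.03 without KO replicate 3 and -0.0005 without WT replicate 2 and KO replicate 3. Its exons share 402 bases with *Gm5475* on the opposite strand, and whether counting used strand is not given.

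*Slc11a1* encodes NRAMP1, the metal transporter of the phagosome and late endosome of macrophages (ENSMUSG00000026177, chr1:74375195-74386062 on GRCm38). Its level was 427, 503 and 443 CPM in WT and 355, 329 and 277 CPM in KO. Every KO library was below every WT library. The mean was 458 ± 40.4 CPM in WT and 320 ± 39.9 CPM in KO (SD, n = 3), or 0.699 of the WT level. The log2 fold change was -0.52 (SE 0.12, interval -0.79 to -0.25, edgeR adjusted p = 0.147), and DESeq2's adjusted p was 0.0076.

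*Slc11a1* is rich in GC at 55.4%, where the 1000 nearest genes had a median log2 fold change of -0.19 and 8.2% of them lay below it. With the GC correction its values were 416, 439 and 428 CPM in WT and 351, 334 and 337 CPM in KO. The libraries stayed separate and drew closer within each genotype, with a log2 fold change of -0.33 (SE 0.062, interval -0.47 to -0.19, edgeR adjusted p = 0.0486). Leaving out WT replicate 2 and KO replicate 3 gave -0.35 (edgeR adjusted p = 0.0537).

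Of the 7 macrophage markers 4 were lower in KO at an unadjusted p under 0.05, beside 13.2% of all genes. The summed level of the 7 overlapped, at 16377 to 17537 CPM in WT and 14777 to 17572 CPM in KO. *Lyz2* made up 76.5% to 82.0% of that sum. The other 6 markers summed to 3488 to 3851 CPM in WT and 3155 to 3274 CPM in KO, so this sum was lower in every KO library. Of these 6, *Adgre1*, *Mertk* and *Cd68* were named after their values were seen. *Adgre1*, which encodes the macrophage antigen F4/80, was at 525 to 545 CPM in WT and 434 to 454 CPM in KO. *Mertk*, a receptor for the uptake of dying cells, was at 25.3 to 26.5 CPM in WT and 16.9 to 18.5 CPM in KO. *Cd68* went otherwise, at 1046 to 1171 CPM in WT and 1061 to 1153 CPM in KO, which overlapped. Neutrophils also express *Slc11a1*, and the summed level of 10 neutrophil markers was higher in KO, at 1681 to 2024 CPM against 1256 to 1416 CPM in WT. Of the 9 tested, 6 were higher and 1 lower at p under 0.05, beside 13.0% and 13.2% of all genes. *Ly6g* was at 0 to 0.251 CPM, and *Elane* was at 57.3 to 62.7 CPM in WT and 35.5 to 56.1 CPM in KO, whereas *S100a9*, the most abundant of them, was at 290 to 416 CPM in WT and 552 to 684 CPM in KO, the last 2 named after their values were seen. These marker levels are not corrected for GC content, and the part of these markers in the *Slc11a1* difference was not tested.

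**Figure D2:**
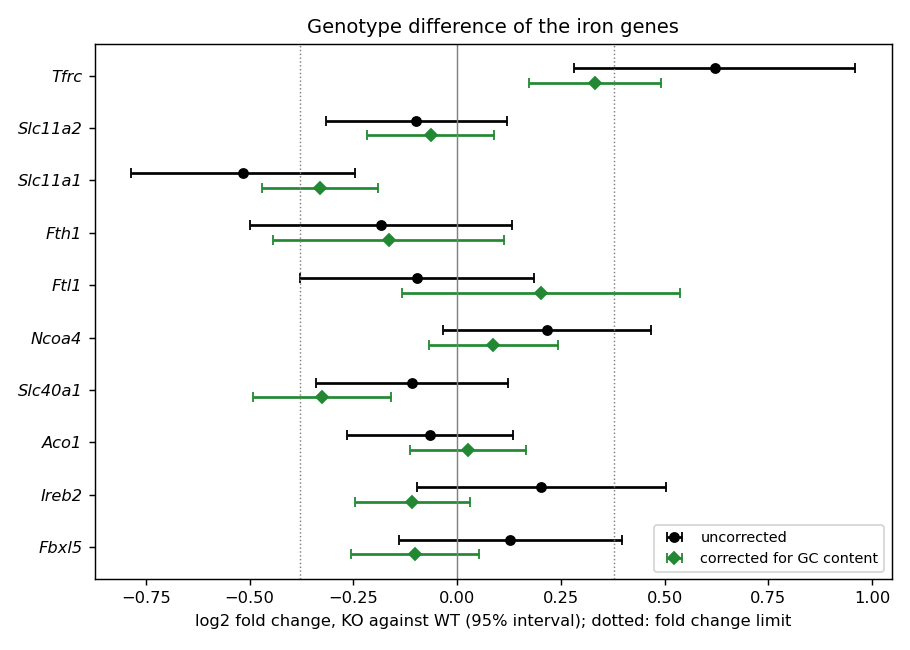
Log2 fold change of KO against WT (horizontal axis) for the 10 members, from uncorrected counts (black circles) and after the GC correction (green diamonds), with 95% intervals and dotted lines at the fold change limit. The interval of *Tfrc* stays above 0 and that of *Slc11a1* below 0 in both fits, while that of *Slc40a1* leaves 0 after the correction.

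The ferritin chains were the most abundant members, and neither passed the limits or an unadjusted p of 0.05. *Fth1*, the chain that oxidises iron for storage (chr19:9980598-9985098 on GRCm38), was at 10774, 10288 and 11360 CPM in WT and 10087, 10283 and 8171 CPM in KO. The KO libraries were all lower, but KO replicate 2 at 10283 and WT replicate 2 at 10288 CPM all but met. The log2 fold change was -0.18 (SE 0.14, interval -0.50 to 0.13, edgeR adjusted p = 0.407), and it was -0.17 with the libraries overlapping after the GC correction, or -0.07 with the GC content of the longest coding transcript. On uncorrected counts it was -0.085 without KO replicate 3 and -0.12 without WT replicate 2 and KO replicate 3.

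*Ftl1*, the chain that helps the mineral core form (chr7:45457944-45459884 on GRCm38), was at 14046, 14126 and 14730 CPM in WT and 13294, 13903 and 12924 CPM in KO. Again the KO libraries were all lower by a small margin, with a log2 fold change of -0.10 (SE 0.12, interval -0.38 to 0.19, edgeR adjusted p = 0.631). At 58.1% GC, *Ftl1* lay above 76.6% of the 1000 genes nearest in GC content, and after the GC correction the sign turned to 0.20 with an interval of -0.13 to 0.54 and overlapping libraries. The corrected values were 13409, 11567 and 13908 CPM in WT and 13039, 14203 and 17477 CPM in KO, lowest in WT replicate 2 and highest in KO replicate 3. Without these 2 libraries the log2 fold change was -0.08 on uncorrected counts. The direction for *Ftl1* thus depends on the correction. Rows for processed copies held at most 0.0025% of the *Fth1* and 0.136% to 0.501% of the *Ftl1* counts, and summing them with their parents left the log2 fold changes at -0.18 and -0.10. *Ftl1* exons also share 109 bases with *Gm22133* on the same strand and 355 bases with *Gm10252* on the opposite strand.

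*Ncoa4*, the receptor that takes ferritin to the lysosome (chr14:32159865-32179855 on GRCm38), was at 262, 242 and 258 CPM in WT and 280, 266 and 339 CPM in KO. The KO libraries were all higher, KO replicate 3 by the most. The mean was 254 ± 10.4 CPM in WT and 295 ± 38.7 CPM in KO, with a log2 fold change of 0.22 (SE 0.11, interval -0.03 to 0.47, edgeR adjusted p = 0.235). After the GC correction the libraries overlapped and the log2 fold change was 0.09. Without WT replicate 2 and KO replicate 3 it was 0.07.

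*Slc40a1*, the exporter ferroportin (ENSMUSG00000025993, chr1:45908068-45926523 on GRCm38), was at 45.2, 41.4 and 47.0 CPM in WT and 40.3, 39.2 and 44.4 CPM in KO. The genotypes overlapped on uncorrected counts, at a mean of 44.5 ± 2.88 and 41.3 ± 2.73 CPM (SD, n = 3), with a log2 fold change of -0.11 (SE 0.10, interval -0.34 to 0.12, edgeR adjusted p = 0.505). Genes of like GC content were on the whole higher in KO. *Slc40a1* has 42.0% GC, the 1000 genes nearest to it had a median log2 fold change of 0.22, and 8.8% of them lay below *Slc40a1*.

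After the GC correction the values of *Slc40a1* were 46.3, 49.2 and 48.8 CPM in WT and 40.4, 38.6 and 36.1 CPM in KO. Every KO library was then below every WT library, and the log2 fold change was -0.33 (SE 0.074, interval -0.49 to -0.16, edgeR adjusted p = 0.0630). It did not pass the adjusted limit. With the GC content of the longest coding transcript the log2 fold change was -0.29 (edgeR adjusted p = 0.0634), and without WT replicate 2 and KO replicate 3, with no GC correction, it was -0.21 (edgeR adjusted p = 0.195). With GC corrected, 1 member was higher and 2 were lower at p under 0.05, beside 12.0% and 13.8% of all genes, and 1 higher and 4 lower members had separate libraries, beside 14.7% and 17.4%.

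**Figure D3:**
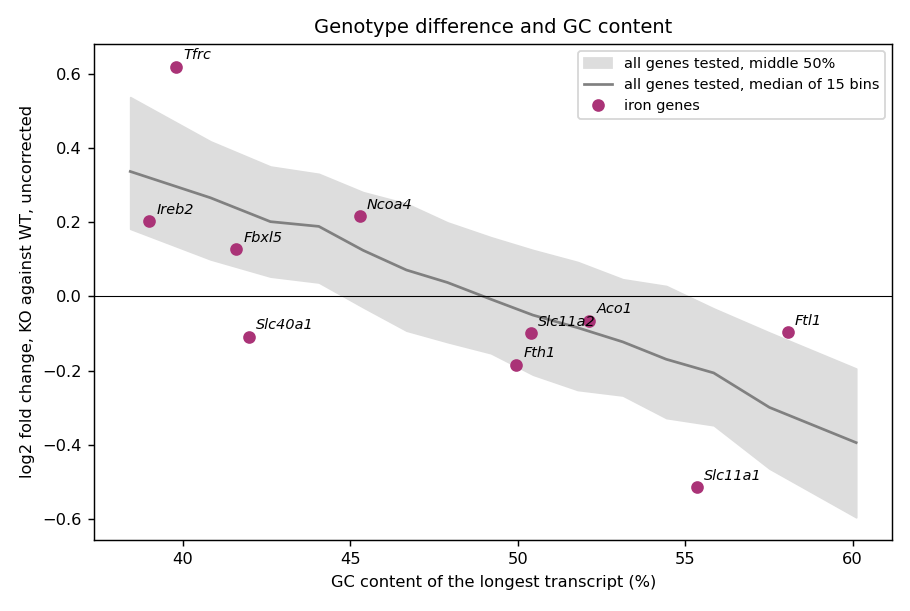
Uncorrected log2 fold change of KO against WT (vertical axis) against the GC content of the longest transcript (horizontal axis, percent), with the 10 members as points, the median of all tested genes in 15 bins of equal size as a line and their middle 50% as a grey band. *Tfrc* and, by a small margin, *Ftl1* lie above the band, and *Slc40a1* and *Slc11a1* lie below it.

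None of the 3 genes of iron sensing had an unadjusted p under 0.05 in either fit. *Aco1*, which encodes IRP1 and is a cytosolic aconitase when it holds an iron-sulphur cluster (chr4:40143081-40198338 on GRCm38), was at 90.0, 98.6 and 90.3 CPM in WT and 91.4, 88.8 and 86.3 CPM in KO. The genotypes overlapped, with a log2 fold change of -0.07 (SE 0.088, interval -0.27 to 0.13, edgeR adjusted p = 0.649) and 0.03 after the GC correction. It lies on the same chromosome as *Ttc39aos1* (chr4:109403794-109406155).

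*Ireb2*, which encodes IRP2 (chr9:54863789-54912530 on GRCm38), was at 92.6, 73.8 and 91.2 CPM in WT and 91.8, 89.8 and 115 CPM in KO. WT replicate 2 was the lowest and KO replicate 3 the highest, and the other libraries lay within 89.8 to 92.6 CPM. The log2 fold change was 0.20 (SE 0.13, interval -0.10 to 0.50, edgeR adjusted p = 0.338), and the GC correction turned it to -0.11 (interval -0.25 to 0.03) with all KO libraries below WT.

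*Fbxl5* (chr5:43744615-43821638 on GRCm38) also had its lowest value in WT replicate 2 and its highest in KO replicate 3, at 44.6, 36.9 and 41.5 CPM in WT and 42.4, 41.7 and 50.4 CPM in KO. Its log2 fold change was 0.13 (SE 0.12, interval -0.14 to 0.40, edgeR adjusted p = 0.495), and -0.10 (interval -0.26 to 0.05) after the GC correction, again with all KO libraries lower. The exons of *Fbxl5* share 98 bases with *Bst1* on the opposite strand. For both genes the direction depends on the correction, and no direction is given.

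Ratios of members inside a library do not depend on how libraries are scaled to each other. *Tfrc* and *Slc40a1*, the entry and the exit for iron, differ by little in GC content, and of the 4 ratios computed theirs moved least with the GC correction. The ratio of *Tfrc* to *Slc40a1* per kilobase was 7.34, 6.25 and 6.99 in WT and 10.95, 10.37 and 12.71 in KO. All KO libraries were above all WT libraries, with a mean log2 ratio of 2.77 ± 0.12 in WT and 3.50 ± 0.15 in KO (SD, n = 3), a difference of 0.72. After the GC correction the ratios were 6.56 to 7.38 in WT and 10.23 to 11.98 in KO, and the difference was 0.66.

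The ratio of *Slc11a1* to *Slc11a2*, the macrophage and the general form of the transporter, was 5.80, 6.46 and 5.99 in WT and 4.798, 4.478 and 4.374 in KO. The libraries were separate, with a log2 difference of -0.42, and they were separate after the GC correction with -0.26. The ratio of *Fth1* to *Ftl1* was 0.342 to 0.362 in WT and 0.297 to 0.356 in KO, and the ratio of *Ireb2* to *Aco1* was 0.497 to 0.683 in WT and 0.666 to 0.885 in KO. These 2 ratios overlapped between genotypes. After the GC correction both were separate and lower in KO, that of *Ireb2* to *Aco1* with its sign turned. *Fth1* to *Ftl1* was at 0.378 to 0.410 in WT and at 0.361, 0.341 and 0.225 in KO replicates 1 to 3, KO replicate 3 being the furthest. *Ireb2* to *Aco1* was at 0.673 to 0.716 in WT and 0.606 to 0.672 in KO. Here WT replicate 2 at 0.6732 and KO replicate 1 at 0.6724 all but met. Transcript length sets the level of a ratio and not its difference between genotypes. The ratios were not tested, and an exact permutation test of 3 against 3 libraries could not go below 0.1.

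**Figure D4:**
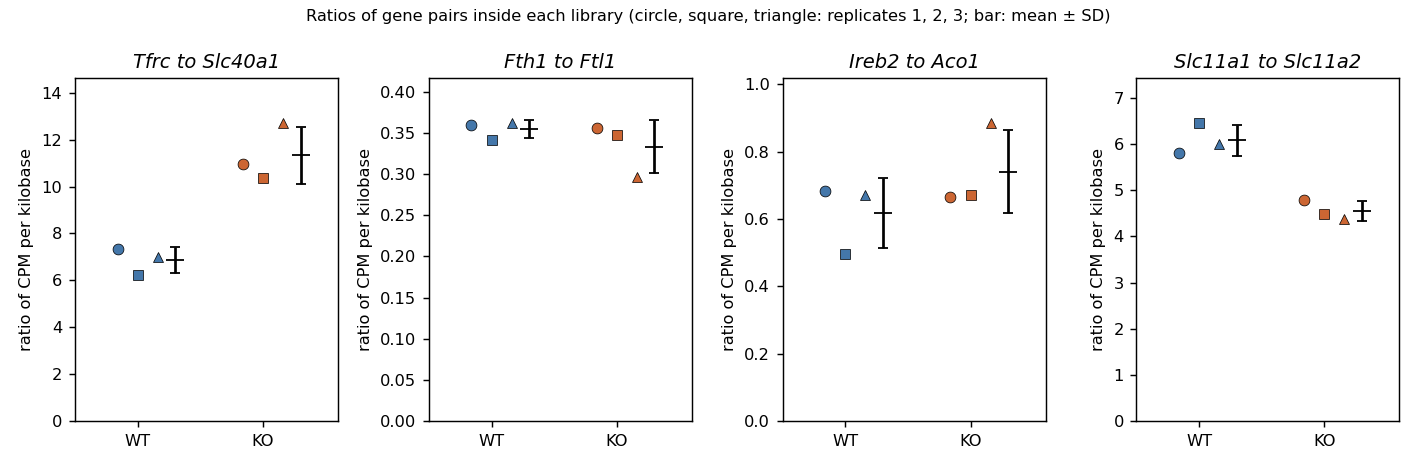
Ratios of 4 pairs of members inside each library (vertical axes from 0, ratio of CPM per kilobase, uncorrected), with symbols for replicates 1 to 3 and the black bar for mean ± SD (n = 3). The ratio of *Tfrc* to *Slc40a1* is 6.25 to 7.34 in WT and 10.4 to 12.7 in KO.

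Of 53 other genes of iron handling, 41 were tested. At an unadjusted p under 0.05, 6 were higher and 4 lower in KO, against the 13.0% and 13.2% of all genes given above, and by edgeR 0 passed both limits. DESeq2 gave 7 higher and 3 lower at an unadjusted p under 0.05, beside 14.1% and 15.2% of its genes. The edgeR counts were 2 higher and 1 lower without WT replicate 2, and also without KO replicate 2. The shares of all genes in these fits are not given here, so a drop in this list cannot be told from one over all genes. The median log2 fold change of the tested genes of this list was -0.0004. The 12 untested genes included *Hamp*, the hormone hepcidin that closes ferroportin from outside the cell, and the ferroxidases *Heph*, *Hephl1* and *Cp*, which hand exported iron to transferrin. *Hamp* was at 0 in all 6 libraries.

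Among the 7 tested genes of the transferrin cycle 0 were higher or lower at p under 0.05 on uncorrected counts. *Hfe*, a partner of the transferrin receptor named here after its values were seen, was at 22.5, 24.8 and 23.1 CPM in WT and 18.3, 19.8 and 21.1 CPM in KO, with a log2 fold change of -0.25 (edgeR adjusted p = 0.194) and -0.30 after the GC correction (edgeR adjusted p = 0.0936). Of the other importers and reductases, *Steap4*, a metalloreductase, was higher, at 6.92, 6.95 and 6.04 CPM in WT and at 8.22 CPM or more in each KO library. Its log2 fold change was 0.45 (SE 0.14, edgeR adjusted p = 0.147). It was 0.31 after the GC correction, no longer at an unadjusted p under 0.05.

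Around FBXL5, the adaptor *Skp1* of its ubiquitin ligase was at 90.1, 65.2 and 85.5 CPM in WT and 93.9, 115 and 148 CPM in KO. All KO libraries were higher, with a log2 fold change of 0.57 (SE 0.18, edgeR adjusted p = 0.147) and 0.42 after the GC correction. The other 6 tested genes of this group did not pass p under 0.05.

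Among iron chaperones and ferritin turnover, 1 of 6 tested genes was higher and 3 were lower at p under 0.05, and 1 and 1 after the GC correction, beside the shares of all genes given above. *Herc2*, a ubiquitin ligase that acts on NCOA4, was at 157, 169 and 160 CPM in WT and 150, 110 and 100 CPM in KO, all lower, with a log2 fold change of -0.43 (edgeR adjusted p = 0.149) and -0.41 after the GC correction (edgeR adjusted p = 0.0943). *Pcbp1*, the chaperone that delivers iron to ferritin, was at 348, 451 and 355 CPM in WT and 325, 306 and 250 CPM in KO. Its log2 fold change was -0.39 (edgeR adjusted p = 0.155) and -0.11 after the correction, with overlapping libraries. The other lower gene was *Atg9a* and the higher one *Cd63*, a membrane protein of secreted vesicles, both named after their values were seen, with log2 fold changes of -0.47 and 0.36. After the GC correction they were at -0.26 and 0.65, and the libraries overlapped for *Atg9a* in both fits.

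In the export group, *Mon1a*, a trafficking factor for ferroportin, had a log2 fold change of -0.37 (edgeR adjusted p = 0.176), which was -0.05 after the GC correction. *Ndfip1*, an adaptor of NEDD4-family ligases that act on DMT1, was at 83.0 to 98.6 CPM in WT and 103 to 137 CPM in KO, with a log2 fold change of 0.34 (edgeR adjusted p = 0.161) and 0.15 after the correction. Of 14 mitochondrial genes 2 were higher at an unadjusted p under 0.05, the iron-sulphur cluster factors *Isca1* and *Isca2*, a share close to the 13.0% of all genes, and 3 were higher after the GC correction, beside 12.0%. *Isca1* was at 45.2 to 54.3 CPM in WT and 56.1 to 68.6 CPM in KO, with a log2 fold change of 0.33 (edgeR adjusted p = 0.153) and 0.34 after the GC correction. *Isca2* was at 17.5 to 20.8 CPM in WT and 21.1 to 29.1 CPM in KO, with 0.35 (edgeR adjusted p = 0.17) and 0.28 after the GC correction, when its libraries overlapped.

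**Figure D5:**
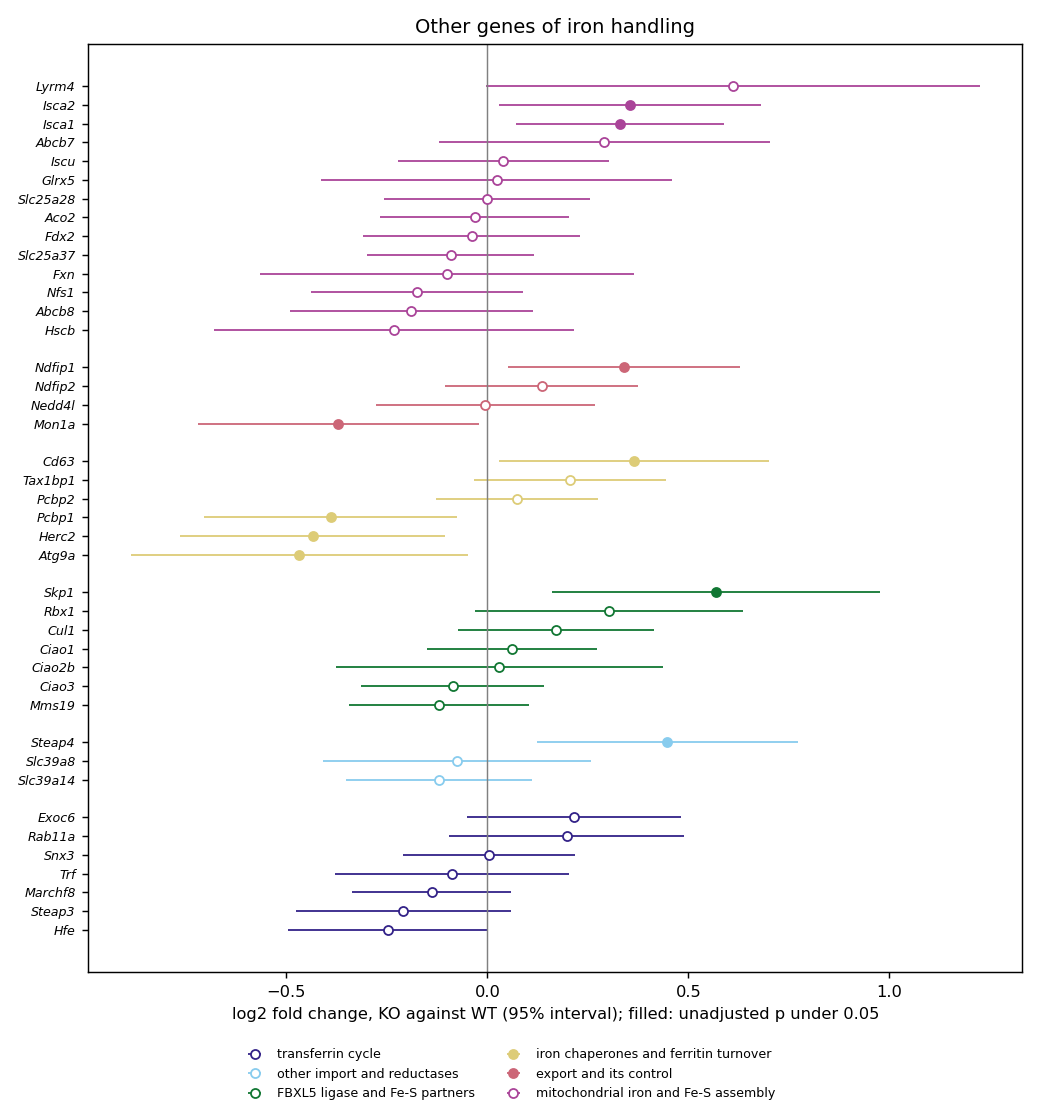
Log2 fold change of KO against WT with its 95% interval (horizontal axis, uncorrected) for the 41 tested genes of the wider iron list, grouped by role. Filled points mark the 6 higher and 4 lower genes with an unadjusted p under 0.05.

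Outside the members and the wider list, a gene of iron transport and a gene of iron release were also read. *Lcn2*, which encodes a protein that binds iron-carrying siderophores, was at 78.1 to 84.8 CPM in WT and 103 to 120 CPM in KO, with a log2 fold change of 0.47 (adjusted p = 0.145 by edgeR and 0.00416 by DESeq2) and 0.63 after the GC correction (adjusted p = 0.0121 by edgeR and 9.46e-10 by DESeq2). The neutrophil markers, whose summed level was also higher in KO as given above, were not tested for their part in it. *Hmox1*, the haem oxygenase that frees iron from haem, was at 387 to 438 CPM in WT and 276 to 313 CPM in KO, with -0.43 (adjusted p = 0.147 by edgeR and 0.00771 by DESeq2) and -0.30 after the GC correction (adjusted p = 0.0556 by edgeR and 0.00225 by DESeq2). The libraries were separate for both genes in both fits.

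The genes whose log2 CPM over the 6 libraries was most like that of *Tfrc*, among 8868 genes with a mean of at least 10 CPM, were *Edil3* (r = 0.998), *Fnbp1l* (r = 0.995) and *Ndufb8* (r = 0.994). For *Slc11a1* they were *Ivd* (r = 1.00), *Slc36a1* (r = 0.999) and *Man1c1* (r = 0.998). With 6 libraries such values are common: 307 genes had r above 0.95 with *Tfrc* and 840 with *Slc11a1*. The likeness is a description over 6 libraries that also differ in their GC trend. The 3 genes most like *Tfrc* have 34.0% to 46.9% GC and the 3 most like *Slc11a1* have 51.1% to 57.3%.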

How the data were processed

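RNA of OCPs was sequenced as stranded mRNA libraries at a sequencing provider. The submitters' processing notes name fastp, HISAT2, StringTie, RSEM and the build GRCm39, with versions not given. The unit the authors deposited is the estimated count per gene, without normalization. For 25.1% to 26.6% of the detected genes in a library the value was not whole, so the values were rounded to whole numbers. The table also holds 2 columns with the authors' mean per genotype, left unused here.

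Groups were taken from the labels. In R 4.3.3, edgeR 4.0.16 was used with filterByExpr, TMM scaling, glmQLFit (legacy = FALSE) and glmQLFTest on genotype over all 13428 genes kept, with Benjamini-Hochberg adjustment. A call needed an adjusted p under 0.01 and a fold change above 1.3, or 0.379 on the log2 scale. With 1.3 read as a log2 fold change, an alternative chosen after seeing the data, 0 members passed in edgeR or DESeq2. CPM are TMM-normalized. DESeq2 1.42.0 and limma 3.58.1 served as alternatives. The GC correction uses offsets from a natural spline (5 degrees of freedom) of a library's deviations on the GC content of each gene's longest transcript. Positions, lengths and sequences come from GENCODE M21 on GRCm38, not the build of the counts. The fits were also run on simulated counts that held no GC trend, so that run does not check the GC correction.

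The members and lists were chosen with earlier results of these data known. Named genes were the 10 members, *Ttc39aos1*, *Lcn2*, *Hmox1*, up to 5 higher and 5 lower genes of the wider iron list with the smallest p under 0.05 and separate libraries, and the 3 genes most like *Tfrc* and *Slc11a1*. *Hfe*, *Atg9a* and *Cd63* fall outside this rule and were named after their values were seen. Markers were taken from fixed lists. A marker of the erythroid list is not reported here. Lymphoid markers summed to 4.43 to 5.14 CPM in WT and 5.70 to 6.73 CPM in KO libraries, and stromal markers to 11.04 to 20.9 CPM in a library. Floors of 3 counts cover counting error only.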

Additional observations from a re-analysis of the deposited data

How the results depend on the processing

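*Tfrc* and *Slc11a1* kept their direction and an unadjusted p under 0.05 in 19 of 19 alternatives each, at log2 fold changes of 0.32 to 0.72 and -0.59 to -0.33, with adjusted p from 0.00207 and 0.000907 to 0.442. Only DESeq2's Wald test put them past both limits, 1 member higher and 1 lower, at 0.62 and -0.52. With each library left out in turn, *Tfrc* gave 0.47 to 0.72 and *Slc11a1* -0.59 to -0.42. *Slc40a1* kept its direction in 19 of 19, at p under 0.05 in the 4 GC-corrected fits and the fit without WT replicate 2 and KO replicate 3, which, like the fit with GC content of the longest coding transcript, was chosen after seeing the data. In those 5 fits 2 members were lower at p under 0.05. The direction of 4 members reversed with the GC correction alone, with DESeq2, with the replicate block, and by the longest coding transcript: *Aco1* to 0.026, 0.026, 0.026 and 0.0088, *Ireb2* to -0.11, -0.11, -0.11 and -0.12, *Fbxl5* to -0.10, -0.10, -0.10 and -0.11, and *Ftl1* to 0.20, 0.20, 0.20 and 0.19. Without WT replicate 2 and KO replicate 3, *Ireb2* was at -0.017 and *Fbxl5* at -0.033. The GC correction moved the difference in log2 ratio of *Fth1* to *Ftl1* to -0.36. The corrected log2 ratio was -1.47, -1.55 and -2.15 in KO replicates 1 to 3, against a WT mean of -1.36. The correction moved the difference for *Slc11a1* to *Slc11a2* to -0.26, and turned that for *Ireb2* to *Aco1* to -0.13. The cause was not tested.

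Leaving out 1 library gave 1 to 2 members higher at p under 0.05, the second being *Ncoa4* without KO replicate 2, and 2 to 7 higher and 1 to 4 lower genes of the wider iron list. The lowest counts, 2 and 1, were those without WT replicate 2 and, again 2 and 1, those without KO replicate 2. These counts stand without the shares of all genes in the same fits.

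With the replicate number as a block, *Tfrc* had a log2 fold change of 0.62 (edgeR adjusted p = 0.0747) and *Slc11a1* -0.52 (edgeR adjusted p = 0.0788), and 0 members passed both limits. The block with the GC correction left 2 lower genes of the wider list at p under 0.05, with the share of all genes in that fit not given here. Same-numbered deviations correlated at r = -0.22, 0.08 and 0.17 across genes, and at -0.11, -0.06 and 0.04 after the GC correction. Not every library went best with its own number. With 3 libraries centred on their genotype mean, these values show no pairing by number but cannot exclude one.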
